A study of Homo sapiens with 22 samples.

Results

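Aminoacyl-tRNA synthetases join each amino acid to its matching tRNA, the step that fixes the genetic code in translation. Human cells run this reaction in the cytosol and, with a separate and mostly distinct set of enzymes, in mitochondria, and all of these enzymes are encoded in the nucleus. The genes were taken by symbol, as every gene of the table whose name has the synthetase pattern of 1 amino acid letter followed by ARS, together with EPRS, FARSA and FARSB. This gave 37 of 60675 genes, of which 20 encode cytosolic enzymes and 17, with symbols ending in 2, encode mitochondrial ones. All 37 passed the filter on low counts in all 5 comparisons. Symbols are given as the table has them, so AARS is the gene now called AARS1.

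RNA was sequenced from HT1080, a human fibrosarcoma cell line, in 22 libraries of 6 groups. Wild-type cells without treatment (WT) gave 4 libraries. Lines with a histidine replaced by alanine in an active site of a lysine deacetylase (KDAC) gave 4 libraries each: KDAC6H216A in the first catalytic domain of KDAC6, KDAC6H611A in its second, and KDAC8H143A in KDAC8. WT cells treated for 2 days with 1 µM Tubastatin A, a KDAC6 inhibitor, or 5 µM PCI-34051, a KDAC8 inhibitor, gave 3 libraries each. The mutations were made at the endogenous genes by genome editing. The KDAC6H216A line is a pool of 3 independent clones, the number of clones behind the other lines is not given in the sources used here, and no vehicle-treated group was analysed here.

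Total counts were 5248960 to 8998521 in WT, 6837484 to 17170493 in the mutant lines and 24315844 to 29862658 with the inhibitors. Mitochondrial rRNA took 20.8 to 23.9% of the counts in WT, at most 0.0259% in KDAC8H143A and at most 0.00541% with the inhibitors, so this share and the depth cannot be told apart from those groups. KDAC6H216A replicate 1 and KDAC6H611A replicate 4 had 0.195% and 0.173%, against 13.2 to 15.1% and 21.0 to 38.0% in the other libraries of their groups. Levels are given in CPM, counts per 1000000 counts of the library after TMM scaling, and differences as log2 fold changes against WT with their standard error (SE). Of 6 epithelial markers EPCAM, CDH1 and KRT19 were at or near 0, CLDN4 was at 2.67 to 9.96 CPM and KRT8 and KRT18 at 71.5 to 301 CPM, and blood cell markers were at most 0.63 CPM in sum. The marker sums varied between and within groups. Summed epithelial markers stood at 215.9 to 255.4 CPM in WT, 394 to 437 CPM with the inhibitors and 397 to 567 CPM in KDAC8H143A, without overlap with WT. The sum of 6 mesenchymal markers was 6304 to 7153 CPM in WT, 9830 to 11410 CPM with the inhibitors and 4382 to 6342 CPM in KDAC8H143A, the last overlapping WT. In KDAC6H611A the epithelial sum ran from 158.1 to 458.3 CPM and the mesenchymal sum from 3256 to 8435 CPM. In KDAC6H216A the sums were 259.3 to 275.7 and 6375 to 8055 CPM. The part of these shifts in the results was not tested. HDAC6, which encodes KDAC6, was at 5.85 to 7.44 CPM in KDAC6H216A against 9.71 to 16.9 CPM in WT (log2 fold change −1.25, adjusted p = 5.40e-03, edgeR quasi-likelihood test), while HDAC8 did not pass the test in any group.

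Some features of these enzymes bear on the results. GARS and KARS each make both the cytosolic and the mitochondrial enzyme for their amino acid. QARS has no mitochondrial counterpart here, because mitochondria load glutamine by an indirect route that uses EARS2 and an amidotransferase of GATB, GATC and QRSL1. FARSA and FARSB are the subunits of 1 enzyme, and EPRS carries both the glutamate and the proline activities. A set of 8 cytosolic members, among them EPRS, IARS, KARS and RARS, sits in the multi-tRNA synthetase complex on the scaffold proteins AIMP1, AIMP2 and EEF1E1. Many cytosolic synthetase genes are known targets of the amino acid response, in which the transcription factor ATF4 binds an element with the core TGATGNAA when amino acids run short.

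This core was searched on both strands from 250 bases before to 50 bases after the start of each gene in RefSeq (GRCh38.p14), where 30 of the 37 genes had an entry. It was present in 7 of 16 cytosolic genes and in 1 of 14 mitochondrial genes, YARS2, against 4.46% of all 27305 genes with an entry and 2.80% of the 10865 that were tested with Tubastatin A. The windows of the 7 cytosolic genes are shown because they hold nearly all of the matches, with 10 bases on either side and the core, or its reverse complement TTNCATCA, in capitals:
AARS, chr16:70289676-70289703, minus strand: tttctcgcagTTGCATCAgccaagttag
CARS, chr11:3057408-3057435, minus strand: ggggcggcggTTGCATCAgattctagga
GARS, chr7:30594835-30594862, plus strand: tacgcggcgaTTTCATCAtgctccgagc
IARS, chr9:92293693-92293720, minus strand: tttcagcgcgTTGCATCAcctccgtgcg
MARS, chr12:57488054-57488081, plus strand: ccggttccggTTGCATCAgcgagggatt
NARS, chr18:57621805-57621832, minus strand: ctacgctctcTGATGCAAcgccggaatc
TARS, chr5:33440957-33440984, plus strand: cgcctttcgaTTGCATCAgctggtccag
In 6 of the 7 windows the core is on the strand opposite to the gene, and the exception is NARS. WARS holds instead the core of the interferon response element, a pair of GAAA runs set 2 bases apart, which 4.38% of all genes with an entry also hold. EARS2 is the other member with this element, and it passed the test described below with neither inhibitor (log2 fold changes of −0.05 and 0.12). The window of WARS is shown because this gene had the largest rise with either inhibitor:
WARS, chr14:100375384-100375411, minus strand: ttcagaaggGAAACTGAAAgaaagaggg
Both motifs were chosen with the expression values known, and a match is a run of letters and not a measured binding site.

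In untreated WT cells the cytosolic genes were far more abundant per length than the mitochondrial ones. The median over genes was 68.3 CPM per kilobase for the 20 cytosolic and 7.78 for the 17 mitochondrial genes, using the length of the canonical transcript. MARS, which loads methionine, stood first at 111 ± 4.5 CPM per kilobase (SD, n = 4), followed by NARS for asparagine at 110.0 ± 6.7, GARS for glycine at 108 ± 11, IARS for isoleucine at 101 ± 7.8, TARS for threonine at 94.4 ± 6.8 and KARS for lysine at 92.9 ± 11. Neighbours in this leading group overlapped in their library values and so were not ordered beyond their spread, and the first gap came between KARS and YARS, at 73.0 ± 4.0.

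The compartments overlapped in the middle of the order. CARS2, the mitochondrial cysteine enzyme, was the most abundant mitochondrial member at 41.7 ± 1.0 CPM per kilobase, level with cytosolic VARS at 42.1 ± 4.2. IARS2, the mitochondrial isoleucine enzyme, was at 31.9 ± 3.6. The lowest cytosolic member was FARSB at 8.82 ± 0.54, a value that rests on a long canonical transcript of 6761 bases. PARS2, the mitochondrial proline enzyme, was lowest of all at 2.23 ± 0.81 CPM per kilobase.

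The summed counts of the cytosolic genes divided by those of the mitochondrial genes give 1 ratio per library that does not depend on how libraries are scaled to each other. In WT it was 6.34, 6.41, 6.35 and 6.35, a mean of 6.36 ± 0.031 (SD, n = 4). With Tubastatin A it was 8.37, 8.27 and 8.27, and with PCI-34051 it was 7.84, 8.13 and 8.00. All 6 treated libraries lay above all 16 others, at a mean of 8.31 ± 0.058 and 7.99 ± 0.14 (SD, n = 3 each), or 1.31 and 1.26 times the WT mean. The doses differ, so the inhibitors are given side by side and were not compared with each other, and they share the WT libraries as controls. In KDAC8H143A the ratio was 5.75 ± 0.34 (SD, n = 4), with a highest library of 6.07 below the lowest of WT, and in the KDAC6H216A and KDAC6H611A lines it was 6.79 ± 0.42 and 6.57 ± 0.41, with ranges that spanned WT. KDAC6H216A replicate 1 and KDAC6H611A replicate 4, the libraries almost free of mitochondrial rRNA in those lines, had ratios of 6.21 and 6.88, below and above the other libraries of their groups. The ratio is not corrected for GC content. In KDAC8H143A the cytosolic and mitochondrial median log2 fold changes were −0.12 and 0.07. After the GC and length correction described below they were −0.33 and −0.29. As in any bulk sample, fewer cells of a kind and less RNA per cell cannot be told apart.

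**Figure D1:**
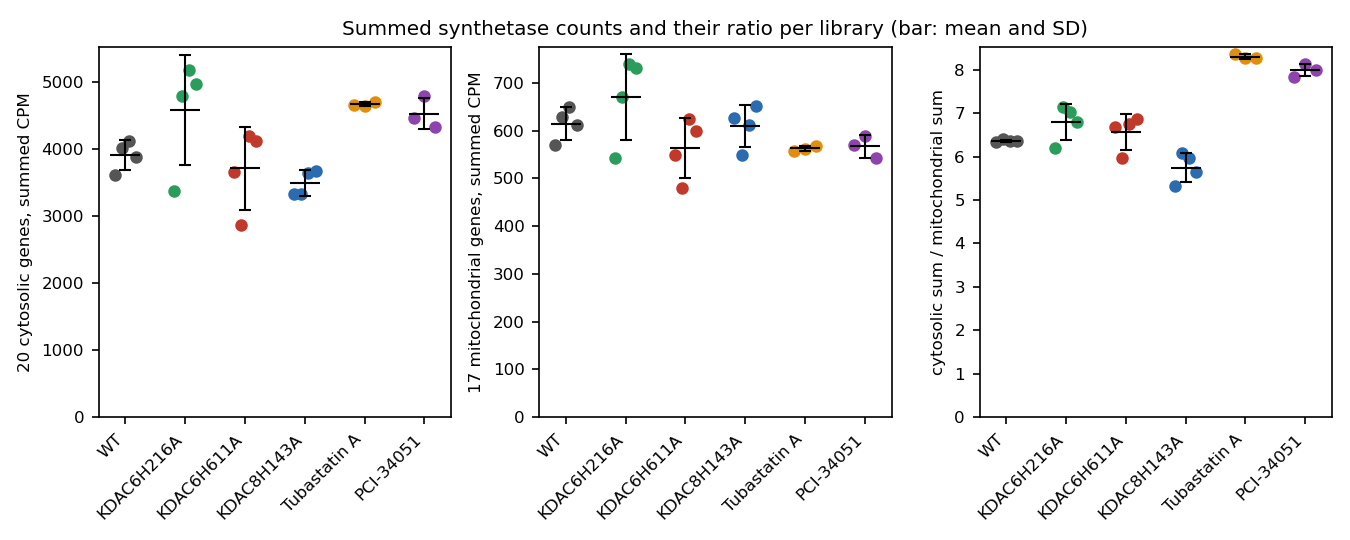
Summed CPM of the 20 cytosolic genes, summed CPM of the 17 mitochondrial genes and their ratio, 1 point per library, with the mean and SD of each group as a bar. The ratio stands at 6.34 to 6.41 in WT and at 7.84 to 8.37 in the 6 inhibitor-treated libraries.

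With Tubastatin A the cytosolic genes rose more often than they fell, and no mitochondrial gene rose. Of the 20 cytosolic genes 10 rose and 3 fell, and of the 17 mitochondrial genes 0 rose and 9 fell (edgeR quasi-likelihood test, adjusted p below 0.01). Across all 15246 tested genes 57.9% were called, 29.3% higher and 28.6% lower, so the number of called members, 22 of 37, is close to the background, while no mitochondrial member is among the 29.3%. The median log2 fold change was 0.15 for the cytosolic and −0.27 for the mitochondrial genes, and that of all genes was −0.003. Scaling by total counts alone moved the median of all genes up by 0.35 and gave 17 rises and 0 falls among cytosolic genes with 4 rises and 3 falls among mitochondrial ones, against 64.0% of all genes called, 51.9% higher and 12.1% lower, so the directions are relative to the scaling while the gap between the compartments is not. Total counts include mitochondrial rRNA, which took 20.8 to 23.9% of the counts in WT and at most 0.00287% with Tubastatin A. With this rRNA removed and TMM scaling the medians were 0.16 and −0.26, with 0.001 for all genes. The part of the rRNA in the shift by total counts was not tested.

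With PCI-34051, too, no mitochondrial gene rose. Of the cytosolic genes 7 rose and 3 fell, and of the mitochondrial genes 0 rose and 7 fell, against 51.1% called among 15346 tested genes, 25.5% higher and 25.6% lower. The medians were 0.08 and −0.27, with −0.007 for all genes. With mitochondrial rRNA removed they were 0.08 and −0.26, with −0.006 for all genes. Total-count scaling, which moved the median of all genes up by 0.38, gave 17 rises and 0 falls among cytosolic and 4 rises and 2 falls among mitochondrial genes, against 61.1% of all genes called, 51.4% higher and 9.62% lower. With no filter on low counts 1 mitochondrial gene rose with each inhibitor, while 6 fell with Tubastatin A and 5 with PCI-34051. Without WT replicate 3, 1 mitochondrial gene rose and 6 fell with PCI-34051.

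**Figure D2:**
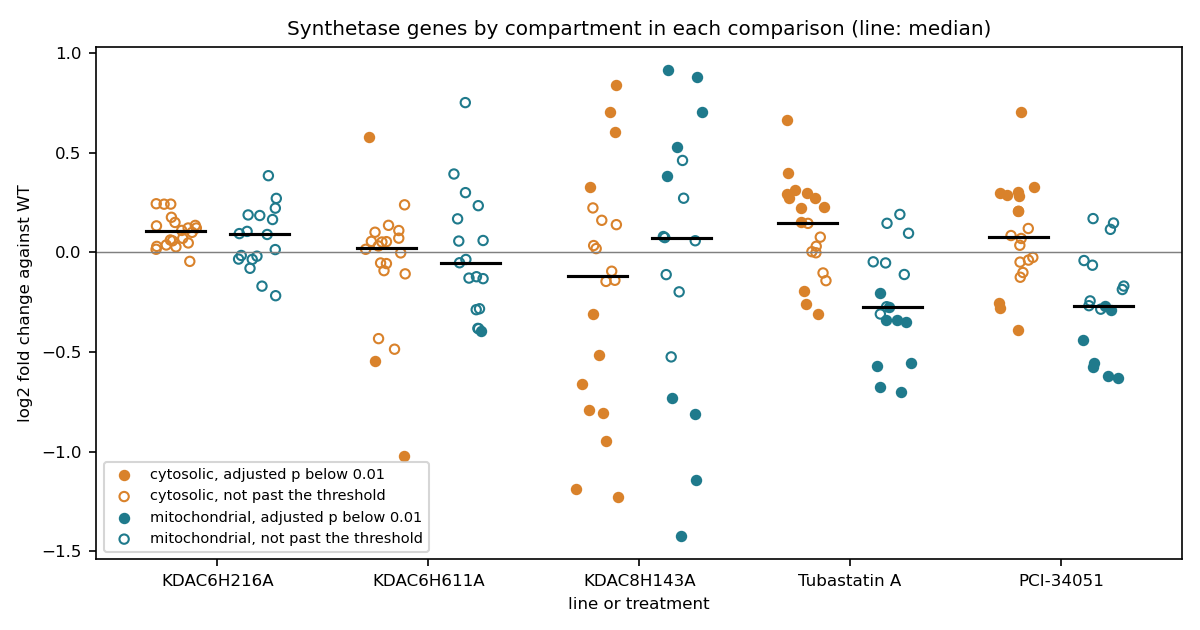
log2 fold change against WT of each synthetase gene in the 5 comparisons, cytosolic genes in orange and mitochondrial genes in teal, filled where the adjusted p was below 0.01, with the median of each set as a line. With both inhibitors no filled mitochondrial point lies above 0 and the medians of the sets are apart, at 0.15 and −0.27 with Tubastatin A and 0.08 and −0.27 with PCI-34051, on a scale where the median of all genes is near 0; under total-count scaling all points of these comparisons shift up by about 0.35 to 0.38.

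WARS, the cytosolic tryptophan enzyme and a known interferon-induced gene, had the largest rise with either inhibitor. It was at 129, 126, 141 and 128 CPM in WT, at 223, 223 and 228 CPM with Tubastatin A, and at 212, 247 and 227 CPM with PCI-34051. The treated libraries all lay above all WT libraries. The log2 fold changes were 0.66 ± 0.048 (SE, adjusted p = 5.46e-10) and 0.70 ± 0.062 (SE, adjusted p = 3.15e-08, edgeR). CPM is set on 1 scale over all 22 libraries and fold changes within each pair of groups, so folds read from CPM are higher by 0.12 and 0.10 in log2 for the inhibitors.

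YARS, the tyrosine enzyme, was at 167, 189, 184 and 174 CPM in WT, 255, 254 and 254 with Tubastatin A, and 235, 249 and 225 with PCI-34051, again without overlap. Its log2 fold changes were 0.40 ± 0.045 and 0.31 ± 0.055 (adjusted p = 2.67e-07 and 1.28e-04). With Tubastatin A GARS rose by 0.30 ± 0.052. With PCI-34051 CARS, for cysteine, rose by 0.33 ± 0.056 and IARS by 0.30 ± 0.059, and GARS stood at 0.21 ± 0.065 with an adjusted p of 0.0110. KARS, the other dual-compartment gene, was at −0.10 ± 0.057 and −0.05 ± 0.069 and passed neither test. The 3 cytosolic genes that fell with Tubastatin A were RARS (−0.31), HARS (−0.26) and NARS (−0.19), all positive under total-count scaling. For HARS and NARS the libraries with Tubastatin A overlapped those of WT. With PCI-34051 RARS (−0.39), HARS (−0.28) and NARS (−0.26) fell, of which HARS and NARS turned positive under that scaling.

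Among mitochondrial genes the valine, cysteine and alanine enzymes fell furthest. CARS2 was at 76.4, 76.8, 74.4 and 79.1 CPM in WT, at 53.1, 51.5 and 50.7 with Tubastatin A, and at 53.2, 57.3 and 54.7 with PCI-34051. No treated library reached a WT library. The log2 fold changes were −0.68 ± 0.046 (adjusted p = 2.26e-10) and −0.58 ± 0.055 (adjusted p = 7.89e-08).

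VARS2 was at 37.6, 37.8, 33.8 and 37.6 CPM in WT, 25.7, 24.3 and 23.1 with Tubastatin A, and 27.2, 23.9 and 24.9 with PCI-34051 (−0.70 ± 0.071 and −0.63 ± 0.074). AARS2 was at 33.7, 37.9, 37.2 and 40.6 CPM in WT, 26.1, 28.9 and 26.9 with Tubastatin A, and 26.9, 28.4 and 22.9 with PCI-34051 (−0.57 ± 0.067 and −0.62 ± 0.078). The groups did not overlap for either gene. SARS2, for serine, fell by 0.56 ± 0.073 and 0.44 ± 0.084 on the log2 scale, and MARS2, for methionine, by 0.55 ± 0.10 with PCI-34051. Same-strand transcripts of other genes cover 63% of the annotated exon bases of VARS2 and 48.2% of those of SARS2, so their reads could have been split in counting, and without these genes 7 of 15 and 5 of 15 mitochondrial genes fell. The falls of CARS2, VARS2, AARS2 and SARS2 kept their sign under total-count scaling with both inhibitors. Not all of them kept their call, as 3 mitochondrial genes were then called lower with Tubastatin A and 2 with PCI-34051. The shares of all genes called lower by that scaling were 12.1% and 9.62%.

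Not every call was firm. In 1 fit over all 6 groups, where 24.9% of genes were called with Tubastatin A (16.2% higher, 8.71% lower) and 23.5% with PCI-34051 (14.6% higher, 8.88% lower), 5 members passed with each inhibitor: WARS, CARS and YARS higher and CARS2 and VARS2 lower with Tubastatin A, and WARS and CARS higher and AARS2, CARS2 and VARS2 lower with PCI-34051. NARS2 with Tubastatin A lost its call when any 1 of the 7 libraries was left out.

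A pair of genes for the same amino acid, 1 per compartment, can be compared within each library. Of 13 such pairs, 11 had a higher cytosolic to mitochondrial ratio with Tubastatin A than in WT and 10 with PCI-34051, with median shifts of 0.56 and 0.39 in log2. The cysteine pair moved furthest with Tubastatin A, from a log2 ratio of counts per length of 0.25 ± 0.049 in WT to 1.22 ± 0.068, and reached 1.15 ± 0.012 with PCI-34051. The arginine pair moved the other way, from 2.64 ± 0.11 to 2.43 ± 0.16 and 2.28 ± 0.11, and the asparagine, histidine, isoleucine and threonine pairs shifted by less than 0.19 in either treatment. Both members of a pair are synthetase genes already counted above, so the shifts restate their folds without the scaling.

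**Figure D3:**
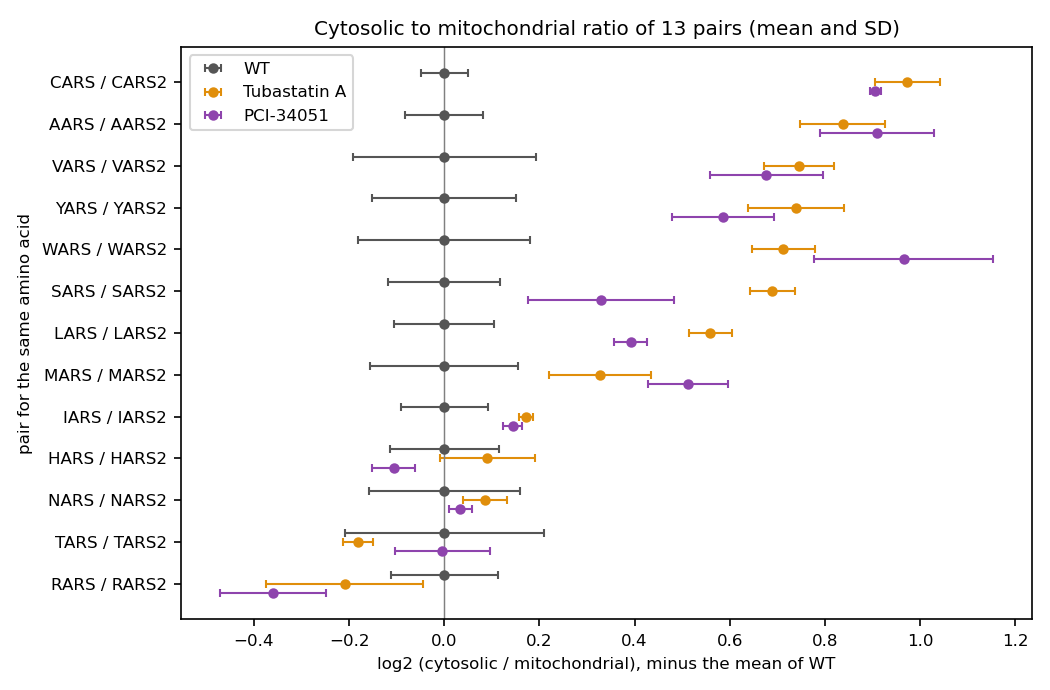
log2 ratio of cytosolic to mitochondrial counts per length for 13 amino acids with a gene in each compartment, relative to the WT mean, as mean and SD over libraries. The cysteine pair stands at the top, 0.97 above WT with Tubastatin A and 0.91 with PCI-34051, and the arginine pair lies below WT in both.

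Cytosolic genes with and without the TGATGNAA core were set side by side. With Tubastatin A 4 of 7 genes with the core rose and 1 fell, against 3 of 9 and 2 of 9 without it, and the medians were 0.27 and 0.004 in log2. With PCI-34051 3 of 7 rose and 1 fell against 1 of 9 and 2 of 9, with medians of 0.21 and −0.05. Of all tested genes 29.3% were higher and 28.6% lower with Tubastatin A, and 25.5% and 25.6% with PCI-34051. WARS and YARS, which rose furthest with Tubastatin A, are not among the genes in which the core was found, and YARS had no entry to search. This difference was not tested.

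Of 25 genes of the amino acid response, a list that holds no synthetase, 16 rose and 2 fell with each inhibitor, against 29.3% of all genes higher and 28.6% lower with Tubastatin A and 25.5% and 25.6% with PCI-34051. Total-count scaling gave 22 rises and 0 falls with Tubastatin A, and 21 rises and 1 fall with PCI-34051. STC2, a secreted glycoprotein, rose by 1.62 ± 0.051 and 1.75 ± 0.067 in log2, SLC7A11, the cystine transporter, by 1.55 ± 0.052 and 1.74 ± 0.060, and CEBPB, a transcription factor, by 1.47 ± 0.063 and 1.76 ± 0.080. ASNS, asparagine synthetase, rose by 0.88 ± 0.048 and 0.63 ± 0.059. The mRNA of ATF4 itself fell, by 0.46 ± 0.045 and 0.60 ± 0.061, and ATF4 is known to be controlled mainly in translation. Of 13 partner genes of tRNA charging 0 rose, while 6 fell with Tubastatin A and 5 with PCI-34051, against the same shares of all genes. Under total-count scaling this turned to 5 and 4 rises with 0 falls, so the direction of the partner genes is relative to the scaling. The genes that fell include AIMP2 of the complex scaffold (−0.43 ± 0.077 and −0.29 ± 0.083) and GATB (−0.48 ± 0.075 and −0.42 ± 0.080) and QRSL1 (−0.40 ± 0.077 and −0.29 ± 0.076) of the mitochondrial amidotransferase.

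In KDAC8H143A the synthetase genes moved in both directions and in both compartments. Of the cytosolic genes 4 rose and 8 fell, and of the mitochondrial genes 5 rose and 4 fell, against 58.5% of 16101 genes called, 31.6% higher and 26.9% lower. The medians were −0.12 and 0.07, with 0.08 for all genes. With mitochondrial rRNA removed they were −0.16 and 0.03, with 0.02 for all genes. Total-count scaling moved the median of all genes up by 0.36 and gave 7 rises and 5 falls among cytosolic and 7 rises and 3 falls among mitochondrial genes, against 55.7% of all genes called, 40.3% higher and 15.5% lower. Of the 8 genes of the multi-tRNA synthetase complex 0 rose and 5 fell, among them EPRS, IARS, KARS and RARS, while total-count scaling gave 2 rises and 3 falls.

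RARS2, the mitochondrial arginine enzyme, fell furthest, from 23.1, 25.7, 29.0 and 22.3 CPM in WT to 10.8, 10.4, 5.62 and 9.13 CPM. RARS, its cytosolic counterpart, went from 139, 145, 160 and 146 CPM to 58.7, 68.4, 58.1 and 64.4. No library of the mutant reached the WT range for either gene. The log2 fold changes were −1.42 ± 0.19 for RARS2 and −1.19 ± 0.094 for RARS (adjusted p = 4.88e-05 and 1.56e-06, edgeR), and IARS2 was at −1.14 ± 0.14. KARS fell by 0.51 ± 0.11 and GARS stood at −0.15 ± 0.10 without passing.

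CARS2 rose from 76.4, 76.8, 74.4 and 79.1 CPM in WT to 157, 107, 128 and 166 CPM in KDAC8H143A. VARS2 was at 70.3, 44.6, 63.5 and 82.7 CPM against 33.8 to 37.8 in WT, and CARS at 240.3, 208, 240.2 and 250.4 CPM against 131 to 140 in WT. These genes showed no overlap with WT, and replicate 2 was the lowest library of the line for each. The log2 fold changes were 0.91 ± 0.14, 0.88 ± 0.17 and 0.84 ± 0.096, followed by AARS2 at 0.71 ± 0.16. CARS2, VARS2 and AARS2, which fell with both inhibitors, rose in this line, and each of these comparisons uses the same WT libraries.

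The direction in KDAC8H143A followed the base composition of the transcript. The 9 members that rose had 48.9 to 61.7% GC in the canonical transcript and the 12 that fell 38.1 to 47.3%, without overlap. Across the 37 genes the log2 fold change had a Pearson correlation of 0.79 with GC content (Spearman 0.80), and across 15897 tested genes of 0.52 (0.60), as a description over genes that share libraries. In the other comparisons its size over the members was 0.08 to 0.37. With smooth trends on GC content and length removed from each library, 49.0% of genes were called, 20.8% higher and 28.1% lower, and 2 cytosolic genes rose and 11 fell, with 1 rise and 7 falls among mitochondrial genes. The correlation over the members was then 0.02.

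After this correction the falls of RARS2 (−0.91 ± 0.17), IARS2 (−0.83 ± 0.10) and RARS (−0.61 ± 0.094) were smaller and still past the threshold. The genes called higher after it were NARS2 (0.80 ± 0.16), LARS (0.52 ± 0.10) and CARS (0.39 ± 0.078), of which NARS2 and LARS had not passed before. LARS belongs to the multi-tRNA synthetase complex, of which 1 gene was then called higher and 6 lower. CARS2 at 0.35 ± 0.11 and VARS2 at 0.02 ± 0.10 no longer passed, and VARS, called higher before the correction at 0.60 ± 0.12, was called lower at −0.42 ± 0.088. AARS2, FARSA, IARS and YARS changed sign without passing. Whether GC content differs between these libraries for a technical or another reason was not tested.

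**Figure D4:**
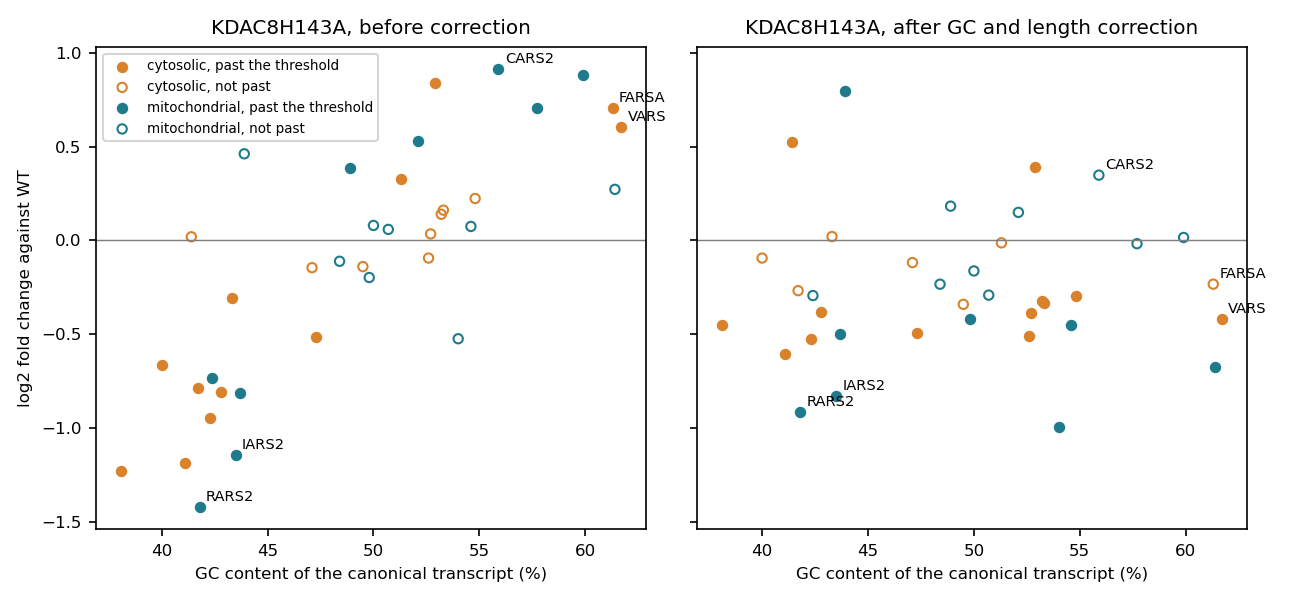
log2 fold change in KDAC8H143A against WT for each synthetase gene by the GC content of its canonical transcript, before (left) and after (right) correction for GC content and length, filled where past the threshold. Before correction the 9 filled points above 0 lie at 48.9% GC or more and the 12 below 0 at 47.3% or less, and after it VARS is below 0 while RARS2 and IARS2 are still low.

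Position along the chromosome was looked at after the fold changes were seen. All folds of neighbours are from the fits without the GC and length correction. RARS2 lies on the long arm of chromosome 6 (chr6:87513459-87590028 in GENCODE 44 on GRCh38), and of 33 tested genes within 5 Mb of it 25 fell and 0 rose in KDAC8H143A, with a median log2 fold change of −1.17 against −0.38 for the chromosome. The 4 other members on chromosome 6, VARS2, VARS, AARS2 and FARS2, lie nearer its start, at positions 5261044 to 44313347, and all 4 were called higher there before the GC correction. The medians of their neighbours were 0.16, 0.23, 0.34 and 0.13.

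Of the 13 partner genes 7 fell and 0 rose in KDAC8H143A, where 58.5% of all genes were called, 31.6% higher and 26.9% lower. The counts were 1 rise and 5 falls after the GC and length correction and 1 rise and 3 falls under total-count scaling. QRSL1 fell by 2.00 ± 0.15, EEF1E1 by 1.83 ± 0.18 and DTD2, which edits mischarged tRNA, by 1.34 ± 0.22 on the log2 scale. Of the 25 amino acid response genes 11 rose and 5 fell, with DDIT4 (1.49 ± 0.16), DDIT3 (1.32 ± 0.17) and CEBPB (1.03 ± 0.13) highest and SLC38A2 (−1.14 ± 0.19), SLC7A11 (−0.82 ± 0.20) and MTHFD2 (−0.78 ± 0.11) lowest. After the correction 4 of the response genes rose and 7 fell, and under total-count scaling 15 rose and 2 fell. DDIT3 shares exon bases with MARS on the opposite strand, and strand use in the counting is not given in the sources used here.

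**Figure D5:**
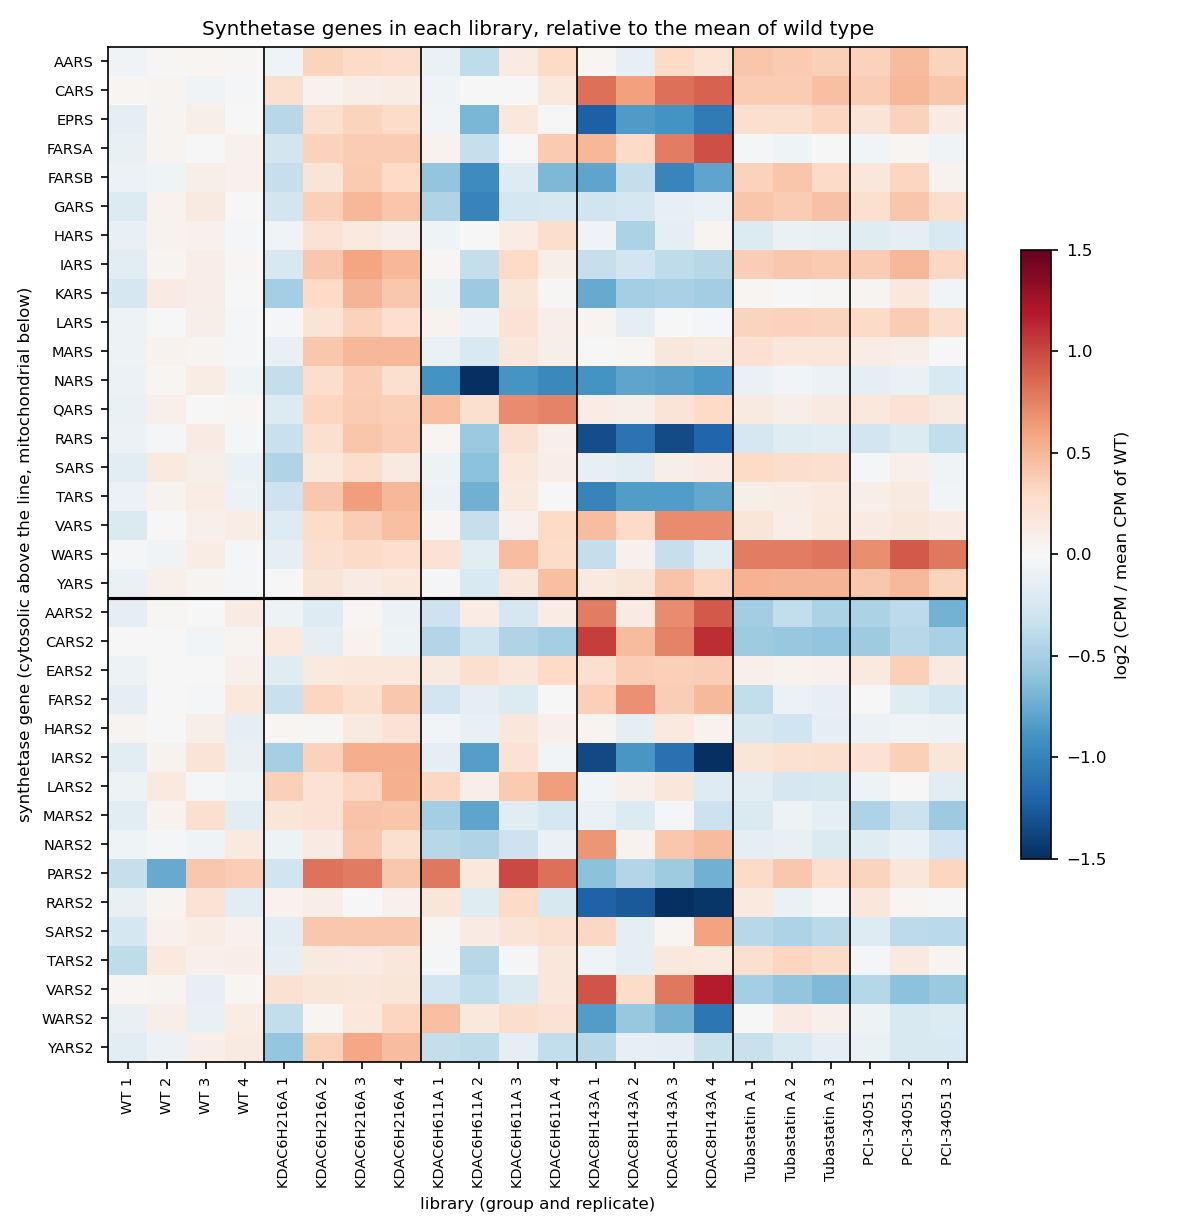
log2 of the CPM of 35 synthetase genes in each of the 22 libraries over its WT mean, cytosolic genes above the line and mitochondrial genes below it, on a colour scale that ends at 1.5 in either direction. NARS is low in all 4 KDAC6H611A libraries, RARS2 and RARS in all 4 KDAC8H143A libraries, and replicate 1 of KDAC6H216A is paler or lower than the other 3 for many cytosolic genes.

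In KDAC6H611A 4 members passed the test, against 12.3% of 14725 genes called, 6.08% higher and 6.24% lower. NARS, the cytosolic asparagine enzyme, was at 287, 309, 328 and 292 CPM in WT and at 163, 105, 165 and 156 CPM in the mutant, every mutant library below every WT library. Its log2 fold change was −1.02 ± 0.13 (adjusted p = 1.00e-04, edgeR). It passed in all 8 fits that left out 1 library and after the GC correction, at −1.003 ± 0.13.

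QARS rose, from 114, 128, 121 and 123 CPM to 166, 144, 199 and 204 CPM (0.58 ± 0.10, adjusted p = 1.76e-03). FARSB fell, from 56.0, 57.1, 63.2 and 62.3 CPM to 39.6, 31.0, 52.1 and 37.3 CPM (−0.54 ± 0.12, adjusted p = 6.96e-03), and CARS2 from 74.4 to 79.1 CPM in WT to 56.6, 62.4, 56.0 and 53.9 CPM (−0.39 ± 0.093, adjusted p = 9.11e-03). The libraries did not overlap for any of them. The calls held in 6, 2 and 1 of 8 fits that left out 1 library, fewer than for NARS. After the GC and length correction CARS2 still passed, at −0.55 ± 0.091 (adjusted p = 1.09e-03, edgeR). QARS at 0.42 ± 0.10 and FARSB at −0.47 ± 0.12 no longer passed (adjusted p = 0.0132 and 0.0124, edgeR). GARS stood at −0.43 ± 0.14 (adjusted p = 0.0390) and KARS at −0.06 ± 0.13.

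KDAC6H611A replicate 2, with the largest share of mitochondrial rRNA, was the lowest library of its group for 29 of 37 members, among them 18 of 20 cytosolic genes. Without it 9 members passed, against 19.4% of genes called, 9.58% higher and 9.83% lower. Among them NARS (−0.92 ± 0.076), CARS2, FARSB and GARS (−0.32 ± 0.082) were then lower, and QARS (0.64 ± 0.079), PARS2 (0.86 ± 0.22), LARS2 (0.44 ± 0.097) and WARS (0.32 ± 0.079) were higher.

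The folds in KDAC6H611A went with those of the genes beside them on the chromosome. NARS lies on chromosome 18, and of 29 tested genes within 5 Mb of it 18 fell and 0 rose, with a median of −0.90, while the 229 tested genes of the chromosome had a median of −0.76. QARS and LARS2 lie close together on chromosome 3, where 39 of 155 neighbours of QARS rose and 0 fell, with a median of 0.38. For CARS2 9 of 38 neighbours fell and 1 rose, with a median of −0.35 on a chromosome whose median was −0.43. For FARSB 13 of 53 neighbours fell and 0 rose, with a median of −0.26 against −0.20 for its chromosome. For GARS, which was not called, 8 of 42 neighbours fell and 1 rose, with a median of −0.40 on a chromosome whose median was 0.24. Across all tested genes 6.08% were higher and 6.24% lower. Over the 37 members the log2 fold change and the median of the neighbours had a Pearson correlation of 0.81 (Spearman 0.68) in KDAC6H611A and 0.60 (0.58) in KDAC8H143A. The values were 0.22 (0.30) in KDAC6H216A, −0.17 (−0.25) with Tubastatin A and −0.08 (−0.22) with PCI-34051. Members close together share neighbours, and this relation was looked at after the values were seen. It is given over the members only, so it is not shown to be particular to synthetase genes. The neighbour folds are from the fits without the GC and length correction, and the part of GC content was not tested. Copy number was not measured and its part was not tested.

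Of the 13 partner genes 0 passed in KDAC6H611A in edgeR or in DESeq2. In edgeR 4 had an unadjusted p below 0.05, and 12.3% of all genes were called, 6.08% higher and 6.24% lower. Of the 25 amino acid response genes 3 rose, DDIT4 (1.95 ± 0.15), ALDH1L2 (0.93 ± 0.089) and ASNS (0.58 ± 0.12), and 2 fell, ATF5 (−0.64 ± 0.15) and SLC7A1 (−0.58 ± 0.10). ASNS makes asparagine, the amino acid that the NARS enzyme loads, and a link between their changes was not tested.

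In KDAC6H216A 0 of 37 members passed the edgeR test, against 0.834% of 14500 genes called, 0.214% higher and 0.621% lower, and 2 had an unadjusted p below 0.05, LARS2 and MARS. DESeq2 also called 0. The medians were 0.11 for cytosolic and 0.09 for mitochondrial genes. GARS was at 0.18 ± 0.12 and KARS at 0.12 ± 0.15. Of the 13 partner and 25 amino acid response genes 0 passed in edgeR, with an unadjusted p below 0.05 for 2 and 7 of them, and DESeq2 called 0 partner genes and 3 response genes, 2 higher and 1 lower.

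This result rests on replicate 1, which was the lowest of the 4 libraries for 30 of 37 members, among them 19 of 20 cytosolic genes. Other groups held such a library too. WT replicate 1 and PCI-34051 replicate 3 were each lowest in their group for 28 of 37 members, among them 17 of 20 cytosolic genes. For IARS, WT was at 401, 464, 482 and 457 CPM and KDAC6H216A at 380.5, 595, 679 and 638 CPM. Without replicate 1, where 26.0% of genes were called, 12.2% higher and 13.8% lower, 9 of 20 cytosolic and 2 of 17 mitochondrial genes were higher and 0 lower. TARS (0.37 ± 0.057), IARS (0.36 ± 0.054), MARS (0.33 ± 0.049) and GARS (0.28 ± 0.058) led the cytosolic genes, and IARS2 (0.34 ± 0.067) and YARS2 (0.32 ± 0.087) were the mitochondrial ones. The part of the rRNA share of replicate 1 in this was not tested.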

How the data were processed

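Total RNA of HT1080 cells was depleted of rRNA and sequenced as paired ends. The authors trimmed reads with Trimmomatic 0.39, aligned them to GRCh38 with Bowtie2 2.4.5 and counted them with RSEM 1.3.3, and the deposited values are expected counts from RSEM for each gene in each library, not scaled for depth or length (DESeq2 1.38.2 is also named in their processing notes). The annotation release and strand setting are not given in the sources used here. Expected counts were rounded and each group was compared with WT in edgeR 4.0.16 (R 4.3.3; filterByExpr, TMM, quasi-likelihood test), and p-values of all tested genes were adjusted together by Benjamini-Hochberg, with a threshold of 0.01, as in the study. The SE of a log2 fold change was taken from the F statistic. CPM (counts per 1000000) used TMM over all 22 libraries. Lengths and GC content came from the canonical transcripts of GENCODE 44. The test was tried on data simulated from the mean profile of WT with a common dispersion. These held no GC trend, rRNA difference or outlying library, so they cannot show how the test behaves where such features occur. p-values measure the spread between the libraries of a group, which for a mutant line come from 1 line or pool.

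The members and the lists were chosen with earlier results of these data known, so counts over them are descriptions. Full values were given for at most 4 rises and 4 falls per comparison with the largest change, for GARS and KARS and for HDAC6 and HDAC8, and at most 3 genes per direction were named from the lists of partners and response genes (ASNS and the neighbours, motifs and extra genes were added after their values were seen). Some members are not reported here by name, but they enter the counts, sums and medians over the synthetase genes, except those over pairs and over values of single genes under alternatives. Libraries with the same replicate number were not paired by the labels, so no replicate block was used in the main fits. Their deviations correlated at −0.18 to 0.319 over 18 pairs, and at 0.0243 to 0.319 in KDAC6H216A. Alternatives were DESeq2 1.42.0, other scalings and filters, a fit of all groups, a replicate block, a GC and length correction, protein-coding genes only, removal of mitochondrial rRNA, thinning to equal total counts and leaving out each library.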

Additional observations from a re-analysis of the deposited data

Results flagged for a closer look

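Within groups of 4 libraries, 160 sets of values were examined for a single library far from the other 3, by Dixon's test at the 95% level, and 16 were marked where chance gives about 8 (1 in 20). Of these, 7 were low values of KDAC6H216A replicate 1, in CPM: EARS2 (22.9, others 28.7 to 28.8), EPRS (202, others 319 to 339.7), FARSA (102, others 156 to 160.4), QARS (105.5, others 152 to 158), SARS2 (24.1, others 35.7 to 35.9), TARS2 (15.6, others 18.8 to 19.3) and WARS (118, others 155 to 159). This library also held 0.195% mitochondrial rRNA against 13.2 to 15.1% in the others.

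In WT, replicate 1 was low for AARS (227 CPM, others 239 to 240.0), SARS2 (22.5, others 28.2 to 29.1) and TARS2 (13.2, others 18.2 to 19.1), replicate 3 was low for VARS2 (33.8, others 37.6 to 37.8) and replicate 4 was high for NARS2 (19.1, others 16.5 to 16.8). In KDAC6H611A, NARS was low in replicate 2 (105 CPM, others 156 to 165) and YARS2 was high in replicate 3 (20.5, others 17.4 to 17.8). In KDAC8H143A, replicate 1 was low for EARS2 (30.7 CPM, others 33.3 to 33.5) and KARS (109, others 129 to 132). WT replicate 1 was the shallowest of the 22 libraries, with 5248960 counts.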

How the results depend on the processing

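The number of synthetase genes past the threshold stayed within 1.5 times of 21 for KDAC8H143A, 22 for Tubastatin A and 17 for PCI-34051 under all alternatives but 1: the fit of all 6 groups gave 5 with either inhibitor. In KDAC6H611A 4 became 1 by total count and 2 with the GC and length correction, with or without the block, and in KDAC6H216A 0 became 1 by total count. Leaving out 1 library gave 0 to 11 in KDAC6H216A (11 without its replicate 1), 1 to 9 in KDAC6H611A (9 without its replicate 2, 1 without WT replicate 1 or 3, and 2 without KDAC6H611A replicate 1 or 4 or WT replicate 2 or 4), and 17 to 21 in KDAC8H143A. It gave 18 to 23 and 15 to 18 for Tubastatin A and PCI-34051.

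With a replicate block there were 0 calls in KDAC6H216A, 3 in KDAC6H611A, 19 in KDAC8H143A, and 20 and 15 for Tubastatin A and PCI-34051. Such counts cannot show whether libraries of the same number belong together, because a block can also cost calls where they do not.

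The cytosolic median log2 fold change with Tubastatin A, 0.15, was 0.12 by upper quartile, 0.50 by total count, 0.24 with no filter, 0.17 with at least 10 counts in every library, 0.27 with all 6 groups, 0.14 with the replicate block, 0.071 with the GC and length correction (0.073 with the block), 0.10 in protein-coding genes, 0.13 with libraries thinned to the same total count, mitochondrial rRNA included, and 0.13 to 0.19 without 1 library. The mitochondrial median, −0.27, was 0.078 by total count, −0.18 with no filter, −0.16 with all 6 groups, −0.32 in protein-coding genes, −0.32 with libraries thinned to the same total and −0.30 to −0.23 without 1 library. With PCI-34051 the cytosolic median, 0.08, was 0.47 by total count, 0.16 with no filter, 0.18 with all 6 groups and −0.0023 with the GC and length correction (−0.0030 with the block), and the mitochondrial median, −0.27, was 0.12, −0.18 and −0.16 in the first 3 of these. In KDAC8H143A the cytosolic median, −0.12, was 0.16 by total count, −0.33 with the GC and length correction (−0.33 with the block) and −0.20 (without KDAC8H143A replicate 4) to −0.098 without 1 library, and the mitochondrial median, 0.07, was 0.36 by total count and −0.29 with the correction (−0.29 with the block), and it turned to −0.0083 without KDAC8H143A replicate 3 and was 0.022 to 0.025 without its replicate 4 or WT replicate 1 or 4. In KDAC6H611A the mitochondrial median, −0.05, was −0.19 with the correction, with or without the block, −0.12 without its replicate 4, −0.11 without WT replicate 1, −0.0010 without WT replicate 4, −0.029 without its replicate 3 and 0.018 without its replicate 2, and the cytosolic median, 0.02, was −0.052, −0.031 and −0.00056 without its replicate 4 or 3 or WT replicate 1, and 0.045 and 0.080 without its replicate 1 or 2. Without 1 library the KDAC6H216A medians, 0.11 and 0.09, were 0.071 to 0.16 and 0.025 to 0.12, the latter 0.025 to 0.050 without any 1 of its own 4 libraries, and the cytosolic median with PCI-34051 was 0.045 (without its replicate 2) to 0.11.

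Without GARS, KARS and QARS the ratio of the sums was 5.44 in WT, 5.79 in KDAC6H216A, 5.60 in KDAC6H611A, 4.94 in KDAC8H143A, and 7.11 under Tubastatin A and 6.83 under PCI-34051, and per length it was 6.26 in WT and 8.24 with Tubastatin A.

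Of 1125 values of single called genes under alternatives, 939 kept direction and call, 166 kept direction and lost the call, and 20 turned. In KDAC8H143A the GC and length correction turned AARS2 (−0.018, −0.02798 with the replicate block), FARSA (−0.23, −0.24), IARS (0.021, 0.021), VARS (−0.42, −0.42) and YARS (−0.013, −0.014). Total count turned, with Tubastatin A, HARS (0.10), HARS2 (0.011), LARS2 (0.010), NARS (0.16), NARS2 (0.078), RARS (0.042) and YARS2 (0.0035), and with PCI-34051 HARS (0.11), NARS (0.13) and YARS2 (0.10). Without 1 library, EARS2, YARS, FARS2 and IARS in KDAC8H143A held their calls in 2, 2, 3 and 4 of 8 fits, EPRS with Tubastatin A in 3 of 7, and LARS and YARS2 with PCI-34051 in 4 and 3 of 7. The cause was not tested. WT depth, at most 8998521 counts per library, limits the low members, PARS2 at 3.1 to 6.9 CPM most.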
